A study of Rattus norvegicus with 10 samples.

Results

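Bile acids are made from cholesterol in hepatocytes, and 10 rat genes that carry out or restrain this synthesis were followed in the livers of Eisai hyperbilirubinemic rats (EHBR) and Sprague-Dawley (SD) rats. The genes were picked by symbol. They were Cyp7a1 and Cyp8b1 of the classic route, Cyp27a1 and Cyp7b1 of the alternative route, and Hsd3b7 and Akr1d1 for oxidation and reduction of the sterol ring. Added to these were Amacr and Slc27a5 of side-chain processing and the nuclear receptor genes Nr1h4 and Nr0b2. All 10 were found once each among the 32883 genes of the deposited tables. All 10 also reached 1 TPM in 5 or more samples, as did 11083 genes, so every member could be tested. TPM is the share of transcripts, corrected for transcript length and scaled to the same total in every sample. EHBR is a mutant line derived from SD rats that lacks the canalicular pump Mrp2, the product of Abcc2, and is used as a model of conjugated hyperbilirubinemia. Poly(A) RNA had been sequenced from 5 livers of EHBR males and 5 livers of SD males, all aged 5 weeks, with the samples numbered 1 to 5 in each strain. The sources used here name no treatment, feeding state or time of day for either strain. Since the mutation comes with the line, loss of Mrp2 and any other strain difference cannot be told apart.

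In the classic route Cyp7a1 hydroxylates cholesterol in the rate-limiting step, Hsd3b7 oxidises the sterol ring, Cyp8b1 adds the hydroxyl group that distinguishes cholic acid, and Akr1d1 reduces the ring to the shape typical of bile acids. The alternative route starts with the mitochondrial enzyme Cyp27a1 and continues with Cyp7b1. Amacr turns the side chain into the form that peroxisomes can shorten, and Slc27a5 activates bile acids with coenzyme A before they are conjugated. Bile acids bind FXR, the product of Nr1h4, which induces Nr0b2. The Nr0b2 product, SHP, has no DNA-binding domain and represses genes such as Cyp7a1 and Cyp8b1 through other factors, among them LRH-1, the product of Nr5a2.

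RefSeq promoters of 6 of the 10 members were at hand, and those of Nr0b2 and Cyp8b1 are shown because both genes belong to the feedback loop and varied widely between samples. The letters CAAGG, the core of the site that LRH-1 is known to bind, were searched on both strands and are in capitals. Each stretch runs from 250 bases before to 50 bases after the RefSeq gene start in the build GRCr8, so the letters are those of the reference rat and not of either strain.
Nr0b2, chr5:151062910-151063209, plus strand: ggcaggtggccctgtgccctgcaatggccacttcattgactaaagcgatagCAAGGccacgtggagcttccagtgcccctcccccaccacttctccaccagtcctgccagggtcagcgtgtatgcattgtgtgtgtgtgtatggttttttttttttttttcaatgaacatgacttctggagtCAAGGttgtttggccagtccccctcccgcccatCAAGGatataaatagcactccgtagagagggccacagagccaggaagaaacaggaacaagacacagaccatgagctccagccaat
Cyp8b1, chr8:130457543-130457842, minus strand: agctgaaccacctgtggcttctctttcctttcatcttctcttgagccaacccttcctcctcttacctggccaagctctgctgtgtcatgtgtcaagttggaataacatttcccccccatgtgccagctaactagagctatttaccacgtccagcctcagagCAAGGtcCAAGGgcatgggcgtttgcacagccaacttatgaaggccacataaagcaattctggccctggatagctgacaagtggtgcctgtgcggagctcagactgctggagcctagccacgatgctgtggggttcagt
The Nr0b2 stretch holds CAAGG 3 times and the Cyp8b1 stretch 2 times, side by side. Of 33469 rat promoters of the same length, 52.4% hold it at least once, 17.8% at least 2 times and 4.48% at least 3 times. Among the other promoters at hand, Cyp27a1 holds it 2 times, Hsd3b7 and Amacr 1 time each and Slc27a5 0 times. These matches describe the letters only.

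Abcc2, the gene mutated in EHBR, had 10.1 to 17.6 TPM in EHBR and 60.0 to 271 TPM in SD, with a difference in log2(TPM + 1), EHBR minus SD, of -3.25 (SE 0.41, adjusted p = 0.000996, limma). Reads assigned to genes came to 13.8 to 17.6 M per EHBR sample and 15.6 to 19.6 M per SD sample. The 8 hepatocyte markers added up to 157535 to 182032 TPM in EHBR and 137200 to 169087 TPM in SD. By limma 0 passed the strain test, against 5.45% of all genes, and 2 had an unadjusted p under 0.05, against 20.9%. The rank-sum test called 0, as over all genes. With a term for the sets of sample numbers 1 to 3 and 4 and 5, 3 of these markers were higher in EHBR, against 13.6% of all genes. Their sum did not overlap within numbers 1 to 3, at 170920 to 182032 TPM in EHBR and 154596 to 169087 TPM in SD. The same held within numbers 4 and 5, at 157535 to 173137 TPM in EHBR and 137200 to 140476 TPM in SD. Of all genes, 20.4% lay above SD without overlap within numbers 1 to 3 and 53.0% within numbers 4 and 5. Of the 6 tested endothelial markers, 3 were higher in EHBR, against 3.82% of all genes. The list added up to 84.7 to 117 TPM in EHBR and 66.9 to 86.4 TPM in SD. Of 3 tested cholangiocyte markers 1 was higher, against 3.82% of all genes, and 5 more were below the filter. With the term for the sets, 1 of the 3 was higher and 1 lower, against 13.6% and 3.36% of all genes. That list added up to 38.8 to 42.4 TPM in EHBR and 35.5 to 37.8 TPM in SD, without overlap, where 8.47% of all genes separated. Of 6 tested erythroid markers 1 was higher and 5 had an unadjusted p under 0.05, against 3.82% and 20.9% of all genes. Samples 4 and 5 of each strain differed from samples 1 to 3 in many genes, so values are also given within each set of numbers. In whole liver, fewer cells of a type and less RNA per cell cannot be told apart.

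No member passed the test between the strains with strain as the only factor, and Akr1d1 and Cyp27a1 passed once a term for the sets of numbers was added. By limma on log2(TPM + 1), with Benjamini-Hochberg adjustment over all tested genes, 0 of the 10 members had an adjusted p under 0.05, where 5.45% of the 11083 genes did, 3.82% as higher and 1.63% as lower in EHBR. Akr1d1, Nr1h4 and Cyp27a1, 3 of the 10, had an unadjusted p under 0.05, against 20.9% of all genes. An exact rank-sum test gave 1 of the 10 an unadjusted p under 0.05, against 1756 of the 11083 genes. With adjustment it called 0 of all genes, also of those whose strains separated completely. Its 0 calls among members, markers and lists therefore decide nothing. In no member did the strains separate completely, against 8.47% of all genes. The log2 difference was positive for 6 members and negative for 4, with a median of 0.14 over the members and 0.15 over all genes. The median absolute difference was 0.41 over the members and 0.21 over all genes. Such estimates also grow with noise, and the median standard error was 0.19 over the members and 0.17 over all genes. Neither these values nor the lack of calls settle how large the strain differences were.

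**Figure D1:**
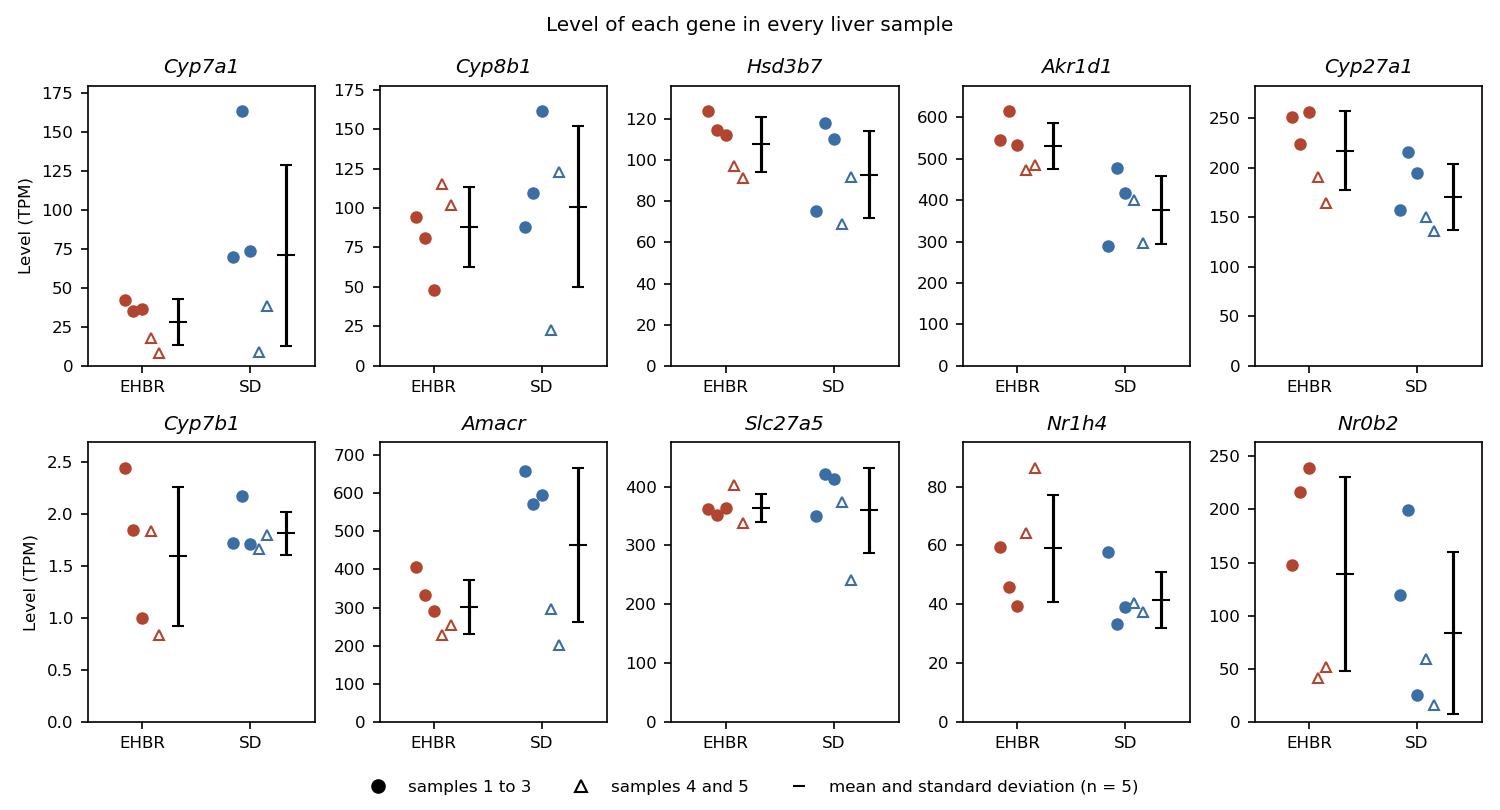
Level in TPM (vertical axes, from 0) of the 10 genes in each liver sample, EHBR left of SD, with filled circles for samples 1 to 3, open triangles for samples 4 and 5, and the mean with its standard deviation (n = 5). The strains overlap in every panel, least so for Akr1d1, where the lowest EHBR sample had 474 TPM and the highest SD sample 477 TPM.

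Levels can be compared between genes in TPM, which is per length. In EHBR the order by mean TPM was Akr1d1, Slc27a5, Amacr, Cyp27a1, Nr0b2, Hsd3b7, Cyp8b1, Nr1h4, Cyp7a1 and Cyp7b1. In SD it was Amacr, Akr1d1, Slc27a5, Cyp27a1, Cyp8b1, Hsd3b7, Nr0b2, Cyp7a1, Nr1h4 and Cyp7b1. Neighbours in these orders overlapped in range, except Akr1d1 above Slc27a5 and Cyp7a1 above Cyp7b1 in EHBR, and Slc27a5 above Cyp27a1 and Nr1h4 above Cyp7b1 in SD.

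Cyp7a1, the gate of the classic route, lies at chr5:19358734-19368431, minus strand, in the build rn6, which also holds for the positions below. Its level was 42.4, 35.2, 36.7, 17.8 and 7.88 TPM in EHBR samples 1 to 5, against 70.1, 163, 73.8, 8.53 and 38.4 TPM in SD samples 1 to 5. It rested on 251 to 1463 reads per EHBR sample and 415 to 6087 per SD sample. All EHBR samples numbered 1 to 3 lay below all SD samples with those numbers, while the strains overlapped among samples 4 and 5, where SD sample 4 was almost as low as EHBR sample 5. The median was 35.2 TPM in EHBR and 70.1 TPM in SD. The log2 difference was -1.01, with a 95% interval of -2.49 to 0.47 (adjusted p = 0.412, limma), and it was -1.61 without SD sample 4 (adjusted p = 0.121, limma) and -0.59 without SD sample 2. In 1 fit with a mean for each strain and set, it was -1.29 within numbers 1 to 3 (-2.44 to -0.15, adjusted p = 0.173, limma) and -0.59 within numbers 4 and 5 (-1.99 to 0.82, adjusted p = 0.510, limma). A fit to samples 1 to 3 alone gave adjusted p = 0.0493, limma, for Cyp7a1, where 2.17% of all genes were lower.

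Hsd3b7 (chr1:199248470-199251740, plus strand), which oxidises the ring after Cyp7a1 has acted, varied less. Its level was 124, 115, 112, 97.1 and 91.3 TPM in EHBR samples 1 to 5, against 75.4, 118, 110.3, 69.1 and 91.9 TPM in SD samples 1 to 5. Every EHBR value lay in a band that also held 3 of the SD values. The log2 difference was 0.23 (95% interval -0.11 to 0.57, adjusted p = 0.408, limma), and 0.06 when each sample was centred on its median and 0.14 without SD sample 4.

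Cyp8b1 (chr8:130548418-130550388, minus strand), whose product directs synthesis towards cholic acid, had 94.0, 81.2, 48.2, 115 and 102 TPM in EHBR samples 1 to 5, against 88.0, 109, 161, 22.8 and 123 TPM in SD samples 1 to 5. SD held both the highest and the lowest level. The log2 difference was -0.01 (95% interval -0.98 to 0.97, adjusted p = 0.994, limma). Within numbers 1 to 3 it was -0.68, within numbers 4 and 5 it was 1.01, and the change between the sets did not pass (1.69, 95% interval -0.14 to 3.52, adjusted p = 0.278, limma).

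Akr1d1 (chr4:65110746-65143941, plus strand), the reductase of the sterol ring, came nearest to passing. Its level was 545, 614, 534, 474 and 484 TPM in EHBR samples 1 to 5, against 288, 477, 418, 401 and 296 TPM in SD samples 1 to 5. The EHBR sample was higher in 24 of the 25 pairs of an EHBR with an SD sample, the exception being EHBR sample 4 against SD sample 2. The mean was 530.2 ± 56.2 TPM in EHBR and 376 ± 81.7 TPM in SD (± standard deviation, n = 5 each, as for the means below), and the log2 difference was 0.52 (95% interval 0.19 to 0.84, adjusted p = 0.0688, limma). The difference was 0.54 within numbers 1 to 3 and 0.47 within numbers 4 and 5, with no overlap between strains in either set. With a term for the 2 sets of numbers Akr1d1 rose (0.52, adjusted p = 0.0255, limma), where 13.6% of all genes did, and likewise with sample weights (adjusted p = 0.0414, limma), where 6.49% did. The summed hepatocyte markers given above also lay higher in EHBR than in SD within both sets, and their part in the rise of Akr1d1 and Cyp27a1 was not tested. Centring each sample on its median gave 0.35 (adjusted p = 0.248, limma), since the median gene was 0.15 higher in EHBR on the TPM scale.

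In the alternative route, Cyp27a1 (chr9:81968332-81998169, plus strand), its mitochondrial first enzyme, had 252, 224, 257, 190.5 and 164 TPM in EHBR samples 1 to 5, against 157, 216, 195, 149.9 and 137 TPM in SD samples 1 to 5. EHBR lay above SD within each set of numbers, and samples 4 and 5 lay below samples 1 to 3 within each strain. The mean was 217 ± 39.7 TPM in EHBR and 171 ± 33.1 TPM in SD, a log2 difference of 0.35 (95% interval 0.00 to 0.69, adjusted p = 0.237, limma). With the term for the sets of numbers Cyp27a1 rose (0.35, adjusted p = 0.0294, limma), while centring on the median gave 0.18 (adjusted p = 0.476, limma). Cyp27a1 is also known in macrophages. The 10 macrophage markers added up to 499.7 to 927 TPM in EHBR and 499 to 621 TPM in SD. Of these markers 0 passed by limma, against 5.45% of all genes, and 1 had an unadjusted p under 0.05, against 20.9%. The rank-sum test called 0 of them, and their part in the Cyp27a1 level was not tested.

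Cyp7b1 (chr2:102701903-102871257, minus strand), which hydroxylates oxysterols after Cyp27a1, was the scarcest member. It had 2.44, 1.85, 1.003, 1.83 and 0.831 TPM in EHBR samples 1 to 5, against 1.72, 2.18, 1.71, 1.66 and 1.79 TPM in SD samples 1 to 5, on 21 to 67 reads per EHBR sample and 46 to 76 per SD sample. EHBR samples lay on both sides of the SD samples. The log2 difference was -0.15 (95% interval -0.55 to 0.24, adjusted p = 0.632, limma), on a scale that understates differences at such low levels. It was -0.27 without EHBR sample 1, -0.07 without EHBR sample 3 and -0.04 without EHBR sample 5.

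Ratios of 2 levels within a sample do not depend on how samples are scaled. They were chosen after the levels were seen and carry no test. Cyp7a1 over Cyp27a1, the first enzymes of the classic and the alternative route, was 0.169, 0.157, 0.143, 0.0932 and 0.0479 in EHBR samples 1 to 5, against 0.446, 0.757, 0.379, 0.0569 and 0.282 in SD samples 1 to 5. SD sample 4 fell among the EHBR samples and the other SD samples lay above all of them. Cyp8b1 over Cyp7a1 ranged from 1.31 to 12.9 in EHBR and from 0.669 to 3.20 in SD, with the highest ratios in EHBR samples 5 and 4.

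**Figure D2:**
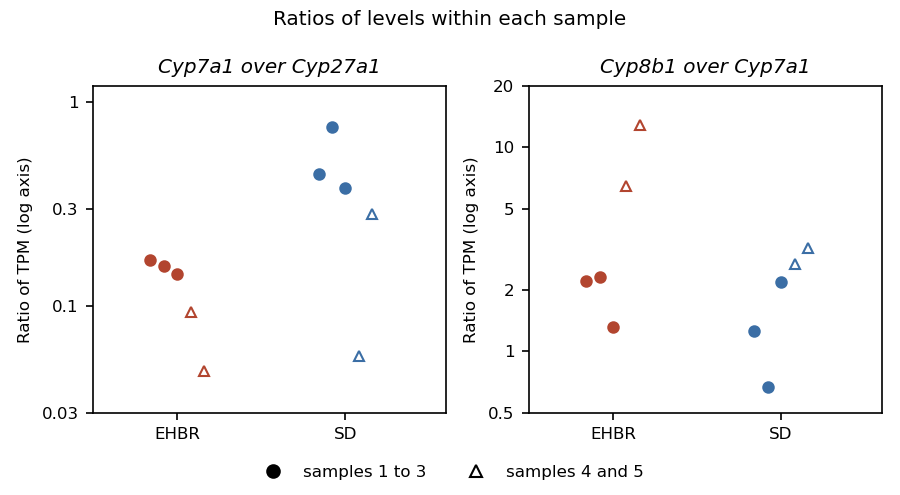
Ratio of TPM levels within each sample (vertical log axes) for Cyp7a1 over Cyp27a1 and Cyp8b1 over Cyp7a1, EHBR left of SD, with filled circles for samples 1 to 3 and open triangles for samples 4 and 5. Cyp7a1 over Cyp27a1 does not exceed 0.169 in EHBR, and SD sample 4 is the only SD sample below that value.

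In side-chain processing, Amacr (chr2:60949256-60961326, plus strand), the racemase, was lower in EHBR within numbers 1 to 3. Its level was 408, 333, 290.1, 227 and 255 TPM in EHBR samples 1 to 5, against 659, 572, 596, 298 and 203 TPM in SD samples 1 to 5. Every EHBR value lay under every SD value within numbers 1 to 3, and the strains overlapped within numbers 4 and 5. Within numbers 1 to 3 the log2 difference was -0.84 (SE 0.16, adjusted p = 0.0141, limma), where 7.13% of all genes passed and 2.29% were lower. Within numbers 4 and 5 it was -0.03 (95% interval -0.46 to 0.41, adjusted p = 0.931, limma). The change between the sets was 0.81 (SE 0.25) and did not pass over all genes (adjusted p = 0.144, limma). Over all 10 samples the log2 difference was -0.51 (adjusted p = 0.363, limma), or -0.78 without SD sample 5, and with sample weights Amacr fell (-0.79, adjusted p = 0.0365, limma), where 2.63% of all genes did. The 6 erythroid markers added up to 2987 to 3314 TPM in EHBR samples 1 to 3 and 982 to 1550 TPM in SD samples 1 to 3. Within these numbers the hepatocyte, endothelial, cholangiocyte and intestine marker sums also lay above SD without overlap, as did 20.4% of all genes. Macrophage, stellate and lymphocyte marker sums overlapped there. The part of any of these cells in the Amacr difference was not tested.

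Slc27a5 (chr1:65576535-65587186, plus strand), the bile acid coenzyme A ligase, had 362, 352, 364, 403 and 338 TPM in EHBR samples 1 to 5, against 350.2, 421, 413, 374 and 240.5 TPM in SD samples 1 to 5. The EHBR values fell inside the SD range. Its log2 difference of 0.04 had a 95% interval of -0.27 to 0.35 (adjusted p = 0.885, limma), and its sign turned to -0.13 after median centring.

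Of the nuclear receptor genes, Nr1h4 (chr7:30003429-30162056, minus strand), which encodes FXR, had 59.3, 46.0, 39.3, 64.1 and 86.4 TPM in EHBR samples 1 to 5, against 57.8, 33.2, 38.9, 40.5 and 37.3 TPM in SD samples 1 to 5. The highest levels were in EHBR samples 5 and 4, while within numbers 1 to 3 the strains overlapped. The mean was 59.0 ± 18.3 TPM in EHBR and 41.5 ± 9.49 TPM in SD, a log2 difference of 0.47 (95% interval 0.02 to 0.92, adjusted p = 0.225, limma). Within numbers 4 and 5 Nr1h4 rose by 0.92 (SE 0.26, adjusted p = 0.0359, limma), where 23.0% of all genes passed and 19.6% were higher. It also passed in samples 4 and 5 alone, where 4.15% of all genes were higher. Within numbers 4 and 5 the sums of some marker lists of other cells were above SD as well, as were 53.0% of all genes without overlap. For stellate cells and fibroblasts they were 133 to 140.3 TPM in EHBR and 81.7 to 92.5 TPM in SD for numbers 4 and 5. The endothelial sums were 84.7 to 99.7 TPM in EHBR and 66.9 to 74.6 TPM in SD for numbers 4 and 5, and those of cholangiocytes 41.0 to 42.4 TPM in EHBR and 35.5 to 36.7 TPM in SD for numbers 4 and 5. Macrophage, erythroid and lymphocyte marker sums overlapped between the strains for numbers 4 and 5. The intestine marker sum was lower in EHBR there, at 19.3 to 32.2 TPM against 36.4 to 51.5 TPM in SD. The part of these cells in the rise of Nr1h4 was not tested. Within numbers 1 to 3 the difference was 0.17 (adjusted p = 0.706, limma), and the change between the sets, 0.75, did not pass (adjusted p = 0.253, limma).

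Nr0b2 (chr5:151776004-151779319, plus strand), the FXR target that encodes SHP and whose promoter is printed above, had 147, 217, 239, 41.3 and 51.6 TPM in EHBR samples 1 to 5, against 119.8, 199, 25.7, 59.7 and 15.6 TPM in SD samples 1 to 5. These levels rested on 500 to 2870 reads per EHBR sample and 236 to 2263 per SD sample. EHBR samples 4 and 5 were low and samples 1 to 3 high, whereas SD samples 3 to 5 were low and samples 1 and 2 high. The mean was 139 ± 91.3 TPM in EHBR and 84.0 ± 76.2 TPM in SD, and the log2 difference was 0.95 with a 95% interval of -0.60 to 2.49 (adjusted p = 0.458, limma), or 0.50 without SD sample 5. The standard error of Nr0b2, 0.71, exceeded that of 99.3% of genes, and that of Cyp7a1, 0.68, exceeded 99.2%, where the median gene had 0.17.

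**Figure D3:**
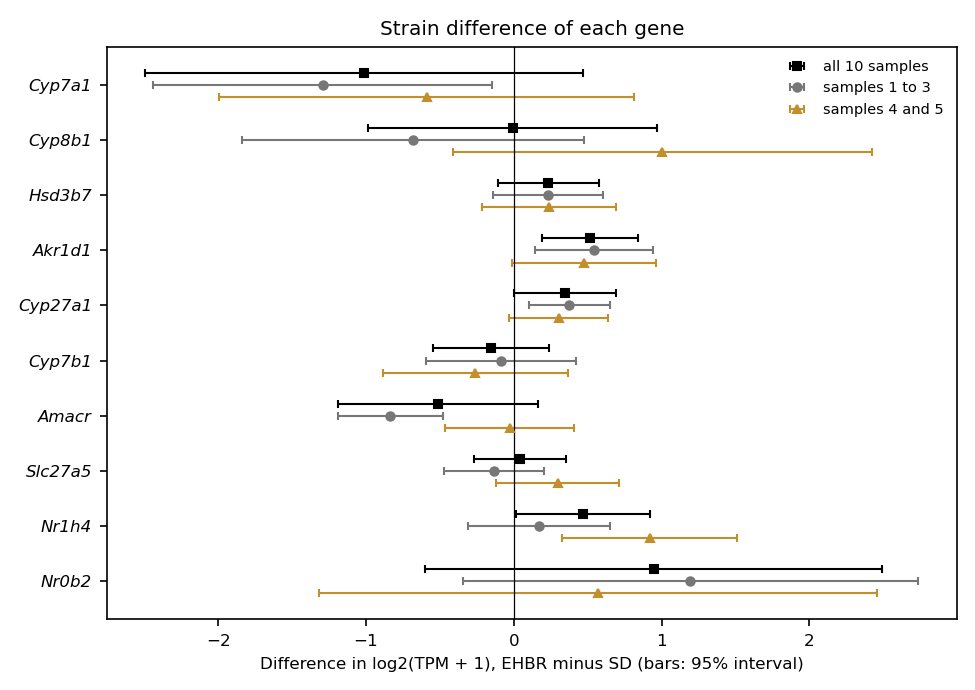
Difference in log2(TPM + 1), EHBR minus SD (horizontal axis), of each gene over all 10 samples, within numbers 1 to 3 and within numbers 4 and 5, with 95% intervals as bars. Intervals are wide for Cyp7a1, Cyp8b1 and Nr0b2, and those that passed adjustment are Amacr in samples 1 to 3, at -0.84, and Nr1h4 in samples 4 and 5, at 0.92.

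For the change of the strain difference between the sets of numbers, 0 of the 10 members passed by limma and 1 had an unadjusted p under 0.05, where 0.271% of all genes passed. The rank-sum test was not run on it. The strains did not overlap within numbers 1 to 3 for 4 members, against 29.1% of all genes. Cyp27a1 and Akr1d1 were above, against 20.4%, and Cyp7a1 and Amacr below, against 8.76%. Within numbers 4 and 5 they did not overlap for 3, against 64.8%, and Cyp27a1, Akr1d1 and Nr1h4 were all above, against 53.0%. With the term for the sets, 2 of 10 members passed, both higher, against 16.9% of all genes in either direction and 3.36% that were lower.

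Cyp7a1, Cyp27a1 and Amacr, 3 of the 10, were lower in samples 4 and 5 than in samples 1 to 3 without overlap in both strains, as were 25.5% of all genes. Averaged over the strains, samples 4 and 5 minus samples 1 to 3 gave a log2 difference of -1.95 for Cyp7a1, -1.76 for Nr0b2 and -0.90 for Amacr. The median was -0.29 over the members and -0.22 over all genes. The division was seen in these data, so these values carry no test. Cyp7a1 is known in rat for a daily rhythm in which the factor DBP takes part. Dbp had 186, 146, 173, 3.26 and 7.51 TPM in EHBR samples 1 to 5, against 93.8, 152, 121, 4.42 and 4.06 TPM in SD samples 1 to 5. Dbp was low in all samples numbered 4 and 5 and high in all others. Of 16 tested circadian genes, 11 were lower on average in samples 4 and 5 and the rest were not. The median over the 16 was -1.08, against -0.22 over all genes. Since the median gene was lower too, the count of 11 was not read as a result about circadian genes. Between strains 0 of the circadian genes passed by limma, against 5.45% of all genes, and 0 had an unadjusted p under 0.05, against 20.9%. The rank-sum test called 0, and the median log2 difference was 0.41. With the term for the sets, 4 of the 16 were higher in EHBR, against 13.6% of all genes. The part of time of day in the levels of Cyp7a1 and Nr0b2 was not tested.

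**Figure D4:**
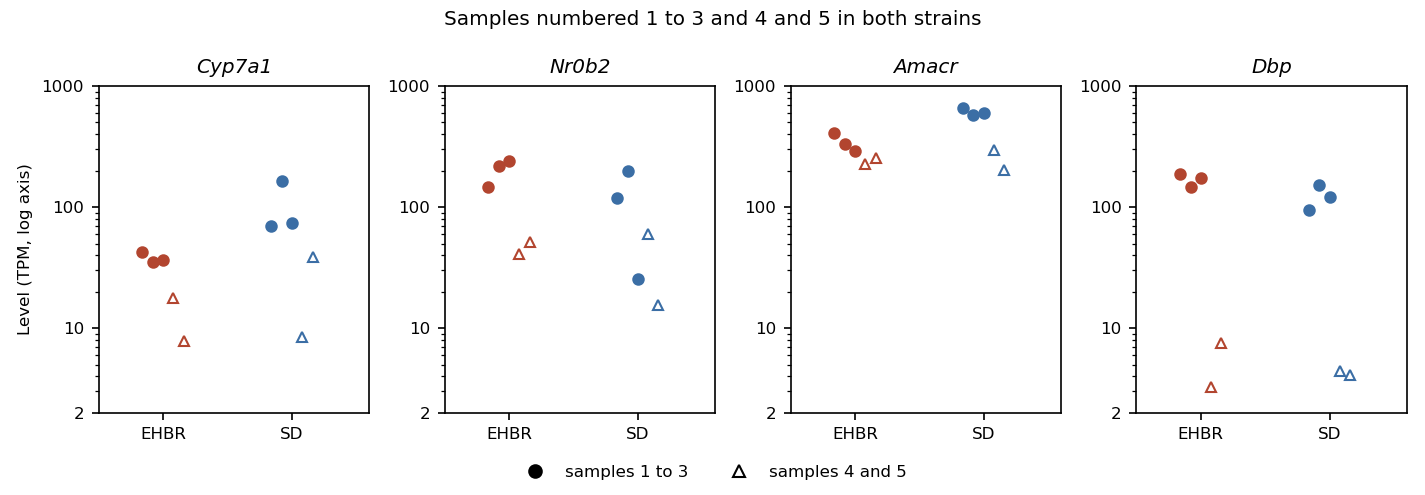
Level in TPM (vertical log axes) of Cyp7a1, Nr0b2, Amacr and the circadian factor gene Dbp in each sample, EHBR left of SD, filled circles for samples 1 to 3 and open triangles for samples 4 and 5. Dbp does not exceed 7.51 TPM in samples 4 and 5 and is at least 93.8 TPM in the others, while Nr0b2 is also low in SD sample 3, at 25.7 TPM.

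Among 7142 tested genes averaging 5 TPM or more, those whose pattern over the 10 samples lay nearest to Cyp7a1 were Txndc11, AABR07068587.1 and Minpp1. Their root-mean-square distances in standardised log2 level were 0.33, 0.34 and 0.35, against a median of 1.17 over all genes compared. For Nr0b2 the nearest were Adhfe1, Ndfip2 and LOC317456, at 0.38, 0.39 and 0.39, against a median of 1.08. None of these 6 passed between strains, with adjusted p from 0.302 to 0.687 by limma.

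Of 16 other tested enzymes and partners of bile acid synthesis, 2 fell in EHBR and 0 rose, against 1.63% and 3.82% of all genes. The other 14 did not pass, and the median log2 difference over the list was 0.14. Those that fell, Acnat1 and Acnat2, encode relatives of the conjugating enzyme Baat, and the Acnat1 enzyme is known in mouse for joining fatty acids to taurine. Acnat1 had 0.0834 ± 0.0863 TPM in EHBR and 175 ± 81.2 TPM in SD, with 2 EHBR samples at 0 (adjusted p = 1.57e-07, limma). Acnat2 had 3.18 ± 0.883 TPM in EHBR and 66.8 ± 52.5 TPM in SD, which on the log2 scale was -3.72 (SE 0.42, adjusted p = 0.000584, limma). They are close copies, so reads could be split between them. With the term for the sets of numbers, the oxysterol hydroxylase gene Cyp39a1, named after its value was seen, was higher (0.38, adjusted p = 0.0162, limma).

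Among 17 tested regulators of the pathway, 0 passed by limma, against 5.45% of all genes, with a median of 0.12. An unadjusted p under 0.05 was found for 2 of the 17, against 20.9% of all genes, and the rank-sum test called 0. Cebpa, a hepatocyte transcription factor gene and the most abundant of them, had 225 ± 22.5 TPM in EHBR and 206 ± 60.4 TPM in SD (log2 difference 0.18, adjusted p = 0.592, limma). Nr5a2, the LRH-1 gene, named after its values were seen, had 9.34 to 15.6 TPM in EHBR and 7.13 to 15.4 TPM in SD (log2 difference 0.28, adjusted p = 0.469, limma). With the term for the sets, the xenobiotic receptor genes Nr1i2 and Nr1i3, also named after their values were seen, passed in opposite directions (0.58, adjusted p = 0.0198, limma, and -0.65, adjusted p = 0.0379, limma).

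Among 16 tested FXR targets and bile salt transporters, 2 rose and 0 fell, against 3.82% and 1.63% of all genes. The other 14 did not pass, and the median over the list was 0.03. Abcc3, a basolateral pump for conjugates, had 4.29 ± 1.03 TPM in EHBR and 0.574 ± 0.164 TPM in SD, with 1.73 as its log2 difference (SE 0.16, adjusted p = 0.000150, limma). At such low levels the size depends on the pseudocount, with 2.70 at 0.1 and 0.73 at 5. Kng1, a kininogen gene known as an FXR target in human, had 586 ± 50.5 TPM in EHBR and 346 ± 47.2 TPM in SD, with 0.77 as its log2 difference (SE 0.11, adjusted p = 0.00224, limma). Abcb11, the canalicular bile salt pump and a classic FXR target, named after its values were seen, had 136 to 169 TPM in EHBR and 72.1 to 142 TPM in SD (log2 difference 0.41, adjusted p = 0.190, limma). Once the term for the sets was fitted, 4 of these 16 were higher and 1 lower, against 13.6% and 3.36% of all genes. The higher genes were Abcc3, Kng1, Abcc4 (0.54, adjusted p = 0.0141, limma) and Slc10a1 (0.29, adjusted p = 0.0276, limma). The lower gene was Apoc2 (-0.57, adjusted p = 0.0131, limma). Pltp (-0.26) and Fgb (-0.19) also lay lower in this fit without passing. Abcc4, Slc10a1, Apoc2, Pltp and Fgb were named after their values were seen. The list holds FXR targets and bile salt transporters together, so these directions were not read as a result about FXR.

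Of 18 tested genes of cholesterol supply and disposal, 0 passed by limma, against 5.45% of all genes, with a median of 0.17. An unadjusted p under 0.05 was found for 5 of the 18, against 20.9% of all genes, and the rank-sum test called 0. The most abundant, Lcat, which esterifies cholesterol in plasma, had 575 ± 44.7 TPM in EHBR and 614 ± 42.3 TPM in SD (log2 difference -0.09, adjusted p = 0.552, limma).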

How the data were processed

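Per the labels' protocols, RNA was extracted with TRIzol, and directional libraries were made from poly(A) RNA. The submitters' processing notes list featureCounts 1.6.3, HISAT2 2.1.0, FastQC 0.11.7, Trimmomatic 0.38 and the rn6 build, without their settings, so use of strand in counting is unknown. Nr1h4 overlaps a U7 gene on the opposite strand, and no other member overlaps a gene in the files. The authors deposited TPM, FPKM and upper-quartile FPKM tables. Read totals and the members' reads were recovered from upper-quartile FPKM, taking for each member the smallest length that made its reads whole within 0.002 reads in every sample.

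Strain and number came from the titles. Limma 3.58.1 (R 4.3.3, trend option) was fitted to log2(TPM + 1) with strain as factor, two-sided, adjusted by Benjamini-Hochberg at a threshold of 0.05. Genes needed 1 TPM in 5 samples. Differences within numbers came from 1 fit with a mean for each strain and set. Only the fit with strain as the sole factor was tested on simulated data, whose spread left out the differences between the sets. The labels do not say how animals were bred or housed, so the p-values reflect only the spread of these samples, which may be technical. Alternatives changed the unit, pseudocount, filter, scaling, variance fit, weights, test, covariates and samples.

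The members, lists and division of numbers were chosen with earlier results of these data known. Named beside the members were Abcc2, up to 3 called genes with the smallest adjusted p per list or else its most abundant gene, and the 3 genes nearest to Cyp7a1 and to Nr0b2. Listed symbols Acaa1b, Klb, Sirt1, Fgf15 and Stard1 matched no gene. Tables and figures were made with Python 3.11.15.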

Additional observations from a re-analysis of the deposited data

Results flagged for a closer look

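Of the values of the 10 members and the other named genes, 1 stood out. Cyp7b1 had 2.18 TPM in SD sample 2, farther from the other SD samples, at 1.66 to 1.79 TPM, than their spread. Its gap to the nearest sample was 0.738 of the whole range of the 5 samples, above the 95% limit of 0.71 for 5 samples, which chance passes in about 5% of groups.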

How the results depend on the processing

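No member passed over all 10 samples under the other units, pseudocounts of 0.1 and 5, other filters (at a mean of 5 TPM Cyp7b1 dropped out), other scalings, variance fits without a trend or robust, or the exact rank-sum test. Members higher in EHBR numbered 1 with sample weights (Akr1d1, 0.51), 1 with the replicate number as a block (Akr1d1, 0.52, adjusted p = 0.0338, limma), 2 with the term for the sets of numbers (Akr1d1, 0.52, and Cyp27a1, 0.35) and 1 in samples 4 and 5 alone (Nr1h4, 0.92, adjusted p = 0.0490, limma). Leaving out each sample in turn gave 0 to 1, the 1 being Akr1d1 without SD sample 2 (0.61, adjusted p = 0.0298, limma). Members lower numbered 1 with sample weights (Amacr, -0.79) and 2 in samples 1 to 3 alone (Cyp7a1, -1.29, and Amacr, -0.84, adjusted p = 0.0121, limma). Cyp8b1 turned to 1.01 in samples 4 and 5 alone and ranged from -0.47 to 0.22 when each sample was left out. Slc27a5 turned to -0.0558 with FPKM, -0.12 with upper-quartile FPKM, -0.13 after median centring, -0.0826 with sample weights and -0.13 in samples 1 to 3 alone, and ranged from -0.10 to 0.10 when each sample was left out. Without 1 sample, Akr1d1 ranged from 0.43 to 0.61, Cyp7a1 from -1.61 to -0.59, Nr0b2 from 0.50 to 1.39, Amacr from -0.78 to -0.35, Hsd3b7 from 0.14 to 0.33, Cyp7b1 from -0.27 to -0.04 and Dbp from -0.32 to 1.21. Cebpa turned to -0.0421 in samples 1 to 3 alone. Over all genes 423 were higher and 181 lower. The higher genes numbered 219 with upper-quartile FPKM, 193 after median centring, 719 with sample weights, 639 with the replicate block, 1506 with the term for the sets, 0 by the rank-sum test and 243 to 439 when each sample was left out. The lower genes numbered 290 after quantile normalization, 292 with sample weights, 372 with the term for the sets, 112 in samples 4 and 5 alone, 0 by the rank-sum test and 135 to 179 when each sample was left out. The rank-sum test, whose smallest two-sided p is 0.00794, left 1756 genes with an unadjusted p under 0.05. Higher genes made up 70.0% of calls in TPM, 58.8% in FPKM, 45.5% in upper-quartile FPKM, 52.0% with quantiles equalised and 42.0% after median centring. Same-numbered samples deviated together with correlations across genes of 0.07 to 0.29, not all over 0.1, so the numbers were not taken to pair the samples. The causes of these shifts were not tested. Counts of 21 to 76 reads limit the precision of Cyp7b1.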
